A study of Homo sapiens with 2 samples.

Results

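The genes described here are 37 named components of the unfolded protein response of the endoplasmic reticulum (ER) and of ER-associated degradation (ERAD), chosen by their gene symbols, of which 35 were named on the array among 17687 named genes. HSP90B1 and PDIA5 had no named row in the array table used, so they have no expression value here and enter the promoter search only. The cells were SW48, an established human colorectal cancer line, and each group was 1 culture measured on 1 whole-transcript GeneChip. The control cells (siControl) received the AllStars negative control small interfering RNA (siRNA), and the knockdown cells (siYY1) received a single siRNA against YY1, a zinc finger transcription factor. Both siRNAs were given at 5 nmol/L with a lipid reagent, and RNA was taken after 3 days of culture. The labels name no agent that stresses the ER in either group. With 1 siRNA against YY1, effects of losing YY1 and effects of that siRNA on other transcripts cannot be told apart, and whether and how far YY1 was lowered was not analysed here.

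Proteins bound for the cell surface or for secretion fold in the ER with the help of chaperones and of enzymes that form disulfide bonds. When unfolded proteins accumulate, the membrane sensors IRE1 (encoded by ERN1), ATF6 and PERK start the unfolded protein response: IRE1 splices the messenger RNA of the transcription factor XBP1, ATF6 is released by proteolysis in the Golgi, and PERK slows translation. XBP1 and ATF6 then raise transcription of chaperones and of ERAD, which draws misfolded proteins through the ER membrane for destruction by the proteasome. YY1 has been reported by others to bind the promoter of HSPA5 under ER stress and to help activate it.

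Of 13 kept ERAD genes 11 had a higher value in siYY1, beside 50.4% of all kept genes, and 1 of them, EDEM1, passed the rule of size used here. This lean was not particular to ERAD. Of 11 chaperones and co-chaperones 9 were also higher, and so were 9 of 11 kept cytosolic heat shock genes. HSPA5, CALR, CANX, PDIA3, PDIA6 and P4HB differed by -0.01 to 0.12. EDEM1, which directs misfolded glycoproteins to ERAD, was 1.87-fold higher, and DNAJB9, a co-chaperone of HSPA5 that also restrains IRE1, was 1.52-fold higher. All other members lay within 1.5-fold. A gene was kept when its mean log2 value over both arrays reached the median of all named genes, 7.54, and 34 of the 35 members were kept. With 1 array in each group there is no replicate and no test, so a difference of at least 1.5-fold (0.58 on the log2 scale) is used as a fixed rule of size. Of the 34 kept members 2, or 5.88%, were past it, beside 6.82% of all 8844 kept genes, so the members' share was near that of all genes. Both were higher, beside 3.04% of all kept genes past 1.5-fold on the high side and 3.78% on the low side.

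The promoters of several members carry short elements through which ATF6 and XBP1 are known to act, and these are shown because the members that hold them can be set beside those that do not. The ER stress element (ERSE) was searched as CCAAT, then 9 unspecified bases, then CCACG. The related ERSE-II was searched as ATTGG, then 1 unspecified base, then CCACG. Both strands of the 250 bases before each annotated start were read, from RefSeq promoters of build GRCh38.p14. Of the 37 members 33 had a promoter in that table; PDIA3, DERL1, DERL3 and UFD1 did not. ERSE was found in 8 of the 33 (24.2%), beside 25 of 27305 genes (0.0916%), and ERSE-II in 3 (9.09%), beside 18 genes (0.0659%). Members count among these 27305 genes. The members were chosen as components of the response in which these elements are known to act, so the higher shares are no finding of these data. The members with ERSE were HSPA5, HSP90B1, CALR, CANX, CRELD2, PDIA6, ERO1B and XBP1, and those with ERSE-II were HYOU1, HERPUD1 and SDF2L1.

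The stretches of HSPA5 (chr9:125241371-125241429, minus strand), CALR (chr19:12938364-12938422, plus strand), XBP1 (chr22:28800583-28800641, minus strand) and CRELD2 (chr22:49918534-49918592, plus strand) around ERSE are printed in the direction of the gene, with the fixed bases of the element in capitals. In CALR and CRELD2 the element lies on the other strand and reads as CGTGG followed by ATTGG.
HSPA5: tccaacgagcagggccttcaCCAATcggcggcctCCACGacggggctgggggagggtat
CALR: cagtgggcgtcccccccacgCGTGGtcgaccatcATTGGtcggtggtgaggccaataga
XBP1: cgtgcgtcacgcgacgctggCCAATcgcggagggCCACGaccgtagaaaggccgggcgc
CRELD2: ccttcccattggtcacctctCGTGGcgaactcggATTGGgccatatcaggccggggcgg

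The ERSE-II stretches of HERPUD1 (chr16:56932005-56932055, plus strand), SDF2L1 (chr22:21642094-21642144, plus strand) and HYOU1 (chr11:119057360-119057410, minus strand) are printed the same way. In HYOU1 the capitals also mark TGACGTGG, the UPR element (UPRE) bound by XBP1, which overlaps ERSE-II there, and a second ERSE-II of HYOU1 starts 79 bases before the start.
HERPUD1: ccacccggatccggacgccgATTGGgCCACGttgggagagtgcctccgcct
SDF2L1: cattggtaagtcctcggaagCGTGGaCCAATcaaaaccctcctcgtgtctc
HYOU1: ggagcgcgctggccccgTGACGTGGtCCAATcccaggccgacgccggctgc

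EDEM1 and DNAJB9, the members past 1.5-fold, held neither ERSE, ERSE-II nor UPRE in this exact form, so the last 100 bases before the start of EDEM1 (chr3:5187607-5187706, plus strand) and DNAJB9 (chr7:108569774-108569873, plus strand) are shown with no capitals.
EDEM1: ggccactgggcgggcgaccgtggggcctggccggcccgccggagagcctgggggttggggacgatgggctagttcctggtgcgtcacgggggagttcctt
DNAJB9: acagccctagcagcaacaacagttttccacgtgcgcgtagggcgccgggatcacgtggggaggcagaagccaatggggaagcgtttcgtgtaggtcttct

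The 10 kept members with ERSE or ERSE-II had differences from -0.40 to 0.36 with a median of 0.03, and 0 of them passed 1.5-fold. The 21 kept members with a promoter and neither element had a median of 0.15, from -0.24 to 0.91, and 2 passed 1.5-fold. Of all kept genes 6.82% passed it in either direction. The ranges overlapped, brightness was not matched between these sets, and no test was made. Bright probe sets scattered less between the arrays, as described below. UPRE was found in DNAJC10, HYOU1 and VCP, 9.09% of the 33, beside 0.780% of all genes, and the differences of these members ran from 0.05 to 0.25. The letters AANATGGC, a form of the YY1 motif, occurred in CRELD2 and HERPUD1, 6.06% beside 4.71% of all genes. The ATF4 element, searched as TGATGNAA, occurred in HERPUD1 alone, 3.03% beside 3.89%. HERPUD1 differed by 0.01 and CRELD2 by 0.15 between the arrays. ATF6B, DERL2 and OS9 held the YY1 letters only in the 50 bases after the start. They differed by -0.05, 0.41 and -0.21. With those bases included, the YY1 letters occurred in 15.2% of the 33 members, beside 7.97% of all genes. A match is a run of letters and does not show that a factor binds there. Lack of an exact match, as in EDEM1 and DNAJB9, does not show that ATF6 or XBP1 does not act there. Forms that depart from the searched letters or spacing were not searched.

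**Figure D1:**
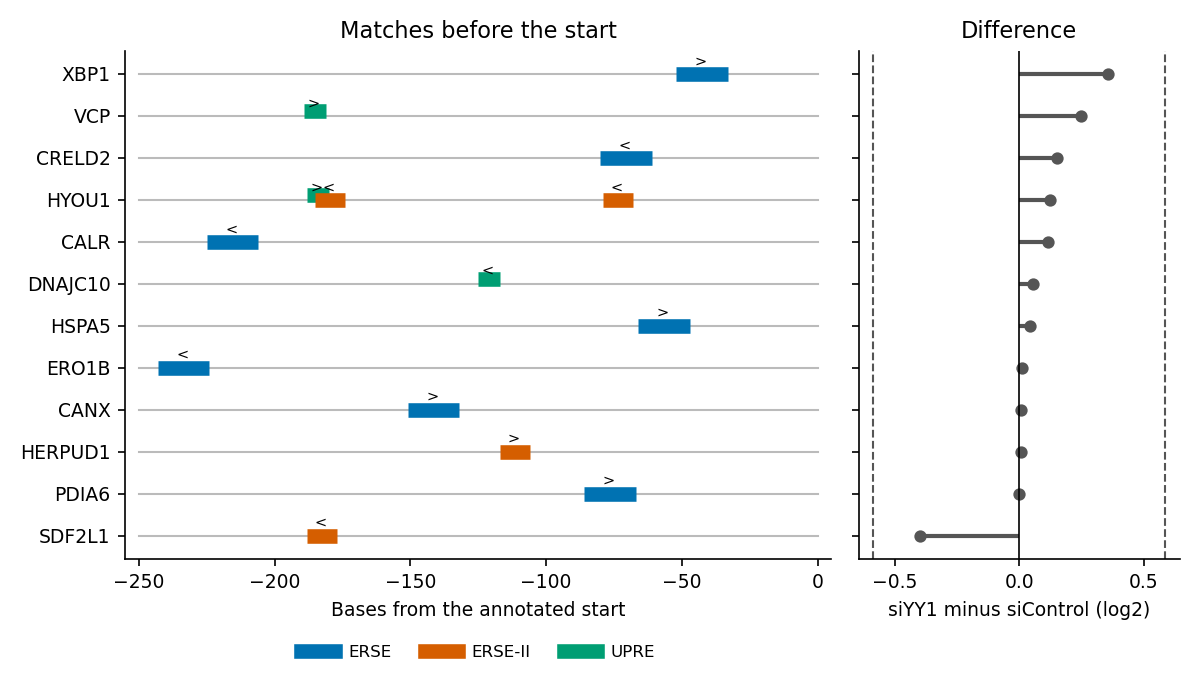
Left, exact matches to ERSE, ERSE-II and UPRE in the 250 bases before the annotated start of each member that has one and a value on the arrays, with an arrow for the strand of the match; for CANX 1 of several starts is drawn. Right, the difference siYY1 minus siControl of the same gene on the log2 scale (1 array a group), with dashed lines at 1.5-fold: every one of these genes lies inside the lines, with XBP1 highest (0.36) and SDF2L1 lowest (-0.40).

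Among the sensors and the transcription factor they activate, XBP1 was the member with the largest difference, at 12.29 in siControl and 12.65 in siYY1, which made it 1.28-fold higher. Its single probe set is annotated to the spliced and the unspliced transcript alike, so splicing by IRE1 was not measured. ATF6, the sensor that becomes a transcription factor when cleaved, went from 12.20 to 12.35, a difference of 0.15. ERN1, which encodes IRE1, went from 9.23 to 9.36, a difference of 0.12. ATF6B, a paralog of ATF6, differed in the other direction by -0.05, at 13.61 and 13.56. ATF6, ATF6B and ERN1 thus lay within the central 50% of all kept genes, which ran from -0.19 to 0.18, and XBP1 lay above it. EIF2AK3, which encodes the sensor PERK, is not a member. It differed by 0.60, past 1.5-fold, and is described below with the PERK arm. Of all kept genes 10.2% had a difference as high as that of XBP1 or higher.

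The abundant chaperones barely differed. HSPA5, the ER member of the HSP70 family and a common readout of the response, had values of 16.67 in siControl and 16.71 in siYY1 and so differed by 0.04. CALR and CANX, the lectin chaperones that hold folding glycoproteins, differed by 0.12 (16.78 and 16.89) and 0.01 (16.29 and 16.30). The sign for CANX changed under another scaling. HYOU1, the nucleotide exchange factor of HSPA5, went from 15.876 to 15.998, a difference of 0.12. These genes had nearly the same value on both arrays. HSPA5, CALR, CANX, PDIA3 and P4HB were above 16 on each array, more than a scanner of 16 bits can record, and their differences ran from -0.01 to 0.12. Whether values this high understate differences was not tested.

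The co-chaperones with a J domain, which bring clients to HSPA5, differed more among themselves. DNAJB9 (also known as ERdj4) went from 12.32 in siControl to 12.92 in siYY1, a difference of 0.61 that lay just past the rule of 1.5-fold. Of all kept genes, 235 (2.66%) were as high or higher, DNAJB9 included. DNAJC3, which also inhibits PERK, went from 14.05 to 14.25, a difference of 0.20. DNAJB11 (12.78 and 12.84) and DNAJC10 (13.13 and 13.18), a J protein that reduces disulfides of ERAD clients, differed by 0.06 and 0.05. DNAJB9 was therefore alone among the J proteins in passing the rule.

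SDF2L1, a partner of DNAJB11, was the lowest of all members, with 10.84 in siControl against 10.44 in siYY1. The difference of -0.40 made it 1.32-fold lower. It is known to be induced by ER stress. MANF, a secreted ER stress protein, went from 12.45 to 12.27, a difference of -0.18, while CRELD2, another secreted ER stress protein, went from 12.66 to 12.81, a difference of 0.15. In all, 9 of the 11 chaperones and co-chaperones measured were above 0 and 2 were below, with a median of 0.06. Of all kept genes 50.4% were above 0, with a median of 0.00. Among those above 0, HSPA5, CANX, DNAJB11 and DNAJC10 differed by only 0.01 to 0.06.

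**Figure D2:**
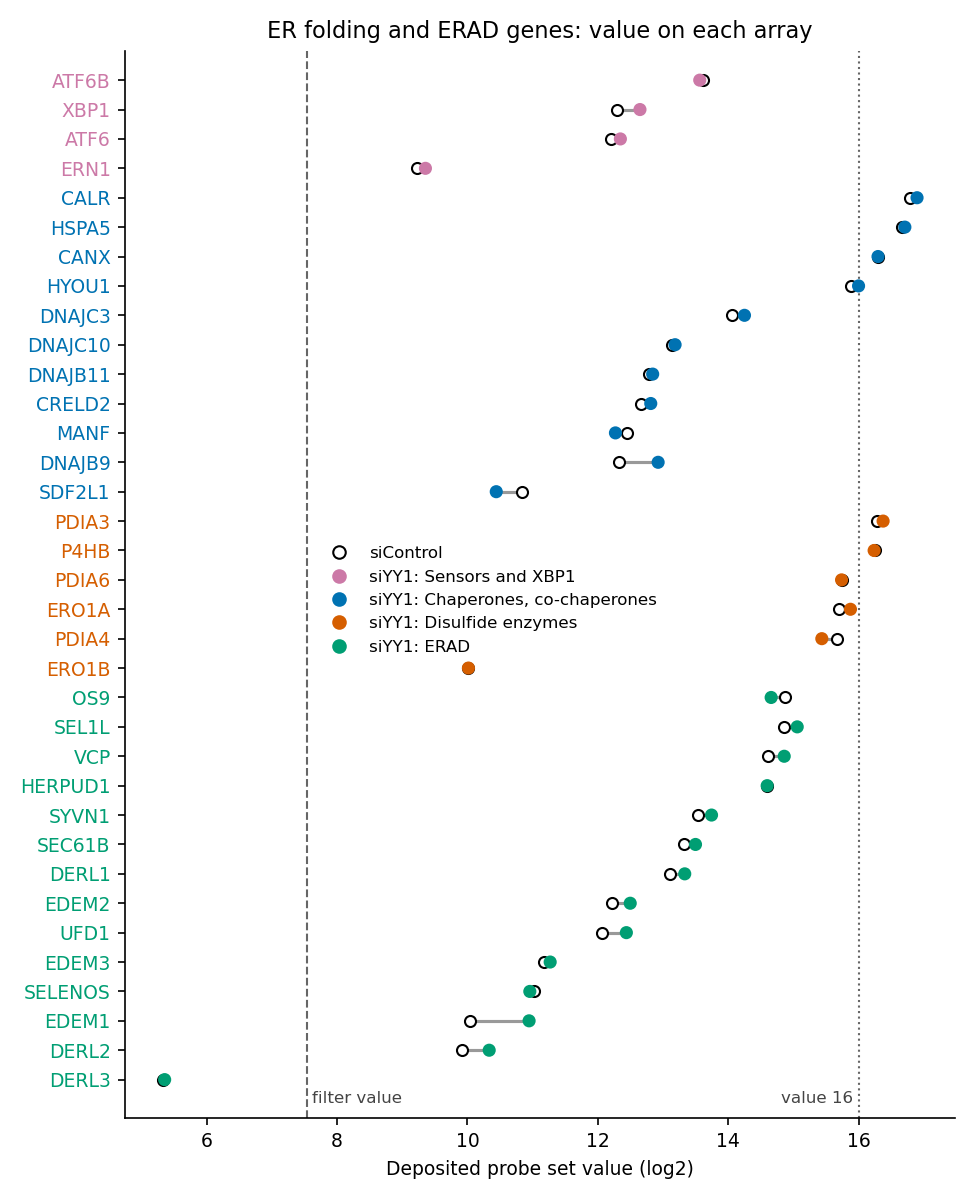
Deposited log2 value of each of the 35 members on the siControl array (open points) and the siYY1 array (filled points), grouped by role; the dashed line is the filter value of 7.54 and the dotted line marks 16. The pairs of points nearly coincide for most genes and part most for EDEM1 and DNAJB9, while DERL3 lies below the filter on both arrays.

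Enzymes of disulfide formation showed the smallest shift of the groups. PDIA3, the isomerase that works with CALR and CANX, differed by 0.09, with 16.29 in siControl and 16.37 in siYY1. P4HB, the classical protein disulfide isomerase, differed by -0.01 (16.25 and 16.24) and PDIA6 by less than 0.01 in size (15.74 on both arrays). The sign for PDIA6 changed under another scaling. PDIA4 was the exception, at 15.67 and 15.43, a difference of -0.24. ERO1A, an oxidase that recharges the isomerases, went from 15.70 to 15.87, a difference of 0.17, and its paralog ERO1B from 10.01 to 10.02, a difference of 0.01. Of these 6 genes 3 were above 0 and 3 below, beside 50.4% of all kept genes above 0, with a median of 0.00.

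ERAD was the group with the highest median, 0.21 over 13 kept genes, of which 11 were above 0 and 2 below. Of all kept genes 50.4% were above 0. The EDEM proteins and OS9 act first, trimming or reading the mannose residues of misfolded glycoproteins. EDEM1 read 10.04 in siControl against 10.95 in siYY1, a difference of 0.91, and 51 of the 8844 kept genes (0.577%) were as high or higher, EDEM1 included. Its paralogs differed less, EDEM2 by 0.27 (12.22 and 12.50) and EDEM3 by 0.10 (11.17 and 11.27). OS9, a lectin that hands clients to the ligase, was lower by contrast, at 14.87 and 14.66, a difference of -0.21. EDEM3 thus lay inside the central 50% of kept genes, EDEM2 above it and EDEM1 beyond 1.5-fold.

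In the membrane ligase complex that ubiquitinates ERAD clients, 0 of 6 kept genes passed 1.5-fold, beside 6.82% of all kept genes. With 6 genes, a count of 0 cannot be told from that share. The differences ran from -0.06 to 0.41. SYVN1, the ubiquitin ligase also called HRD1, went from 13.53 to 13.74, a difference of 0.21. SEL1L, its cofactor, went from 14.85 to 15.06, a difference of 0.20. The derlins, which form part of the exit channel, differed by 0.23 for DERL1 (13.10 and 13.33) and by 0.41 for DERL2 (9.92 and 10.33). DERL3 was not kept, at 5.33 and 5.36 and so under the filter value on both arrays, where no value was shown to be above background. Of the other partners of this complex, HERPUD1, which is strongly induced by ER stress, stood at 14.59 and 14.60, a difference of 0.01 whose sign changed under another scaling. SELENOS, a selenoprotein that recruits VCP, stood at 11.01 and 10.96, a difference of -0.06.

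Extraction and translocation genes had positive differences within 1.5-fold. VCP, the ATPase that pulls clients out of the membrane, went from 14.61 to 14.86, a difference of 0.25. Its cofactor UFD1 went from 12.06 to 12.44, a difference of 0.37 or 1.30-fold. SEC61B, a subunit of the channel through which new proteins enter the ER, went from 13.33 to 13.50, a difference of 0.17. No ERAD member other than EDEM1 passed 1.5-fold.

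**Figure D3:**
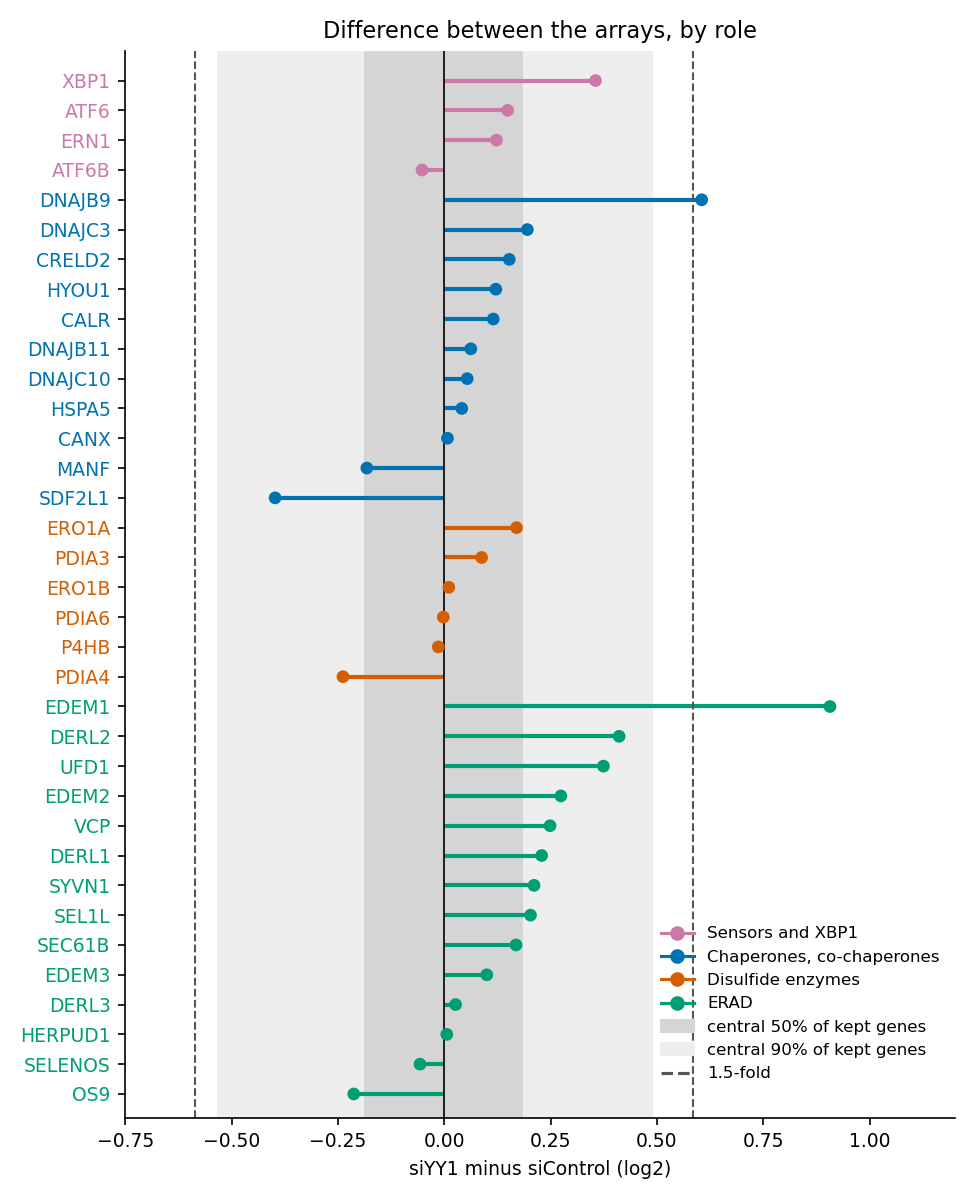
Difference siYY1 minus siControl on the log2 scale for each of the 35 members, grouped by role; dark and light bands hold the central 50% and 90% of all 8844 kept genes, and dashed lines mark 1.5-fold. EDEM1 (0.91) and DNAJB9 (0.61) lie past the line on the high side and no member lies past it on the low side, where SDF2L1 (-0.40) is lowest.

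Over the 34 kept members the median difference was 0.12, beside 0.00 over all kept genes, and 26 members (76.5%) were above 0, beside 50.4% of all kept genes. At a lower threshold, 0.32 on the log2 scale, 5 members (14.7%) were higher, namely EDEM1, DNAJB9, DERL2, UFD1 and XBP1, beside 12.2% of all kept genes. SDF2L1 was the 1 member (2.94%) that far below 0, beside 13.5%. The members' differences were thus small and leaned to one side. In all, 20 members lay inside the central 50% of kept genes, 11 above it and 3 below. These counts all rest on 1 pair of arrays, and the members are not replicates of the knockdown.

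Most members had bright probe sets, and bright probe sets scattered less between the arrays. Of the 35 members 29 lay at or above 10.83, the 75th percentile of all named genes, where 4.61% of genes were past 1.5-fold in either direction. Of these 29 members DNAJB9 alone was past it, since the mean value of EDEM1 lay under that percentile. Members with a mean above 16 had a median difference of 0.04, those from 13 to 16 one of 0.14, and those under 13 one of 0.15. The widest range, from -0.40 to 0.91, was that of the 15 kept members under 13.

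**Figure D4:**
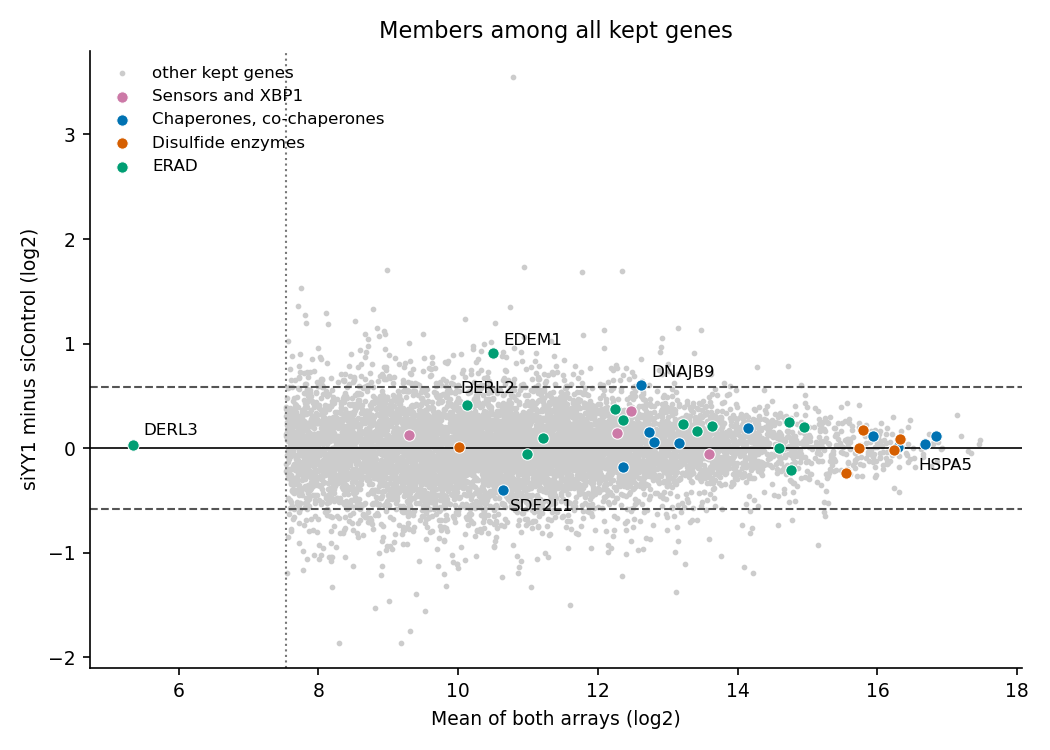
Difference siYY1 minus siControl against the mean of both arrays, both on the log2 scale, for all kept genes (grey) and the 35 members (coloured by role); dashed lines mark 1.5-fold and the dotted line the filter value of 7.54. The cloud of genes narrows to the right, where HSPA5 and most chaperones lie near 0, and EDEM1 lies toward the upper edge of the cloud at its brightness.

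The other genes of the pathway were described through lists that hold no member. Together they had 149 kept genes, of which 97 were above 0, beside 50.4% of all kept genes. Their median was 0.10, beside 0.00 over all kept genes. Of the 149, 6 passed 1.5-fold upward and 4 downward. These are 4.03% and 2.68% of the 149, near the 3.04% and 3.78% of all kept genes. In the PERK arm, 3 of 8 kept genes (37.5%) passed 1.5-fold upward and 0 downward, beside 3.04% and 3.78% of all kept genes, with a median of 0.34. Over all 10 genes found the median was 0.29, and ATF3, under the filter value on both arrays (6.48 and 5.82), was 1 gene past 1.5-fold downward. CHAC1, a glutathione-degrading enzyme induced through ATF4, went from 12.42 to 13.39 (difference 0.97), the pseudokinase gene TRIB3 from 9.91 to 10.54 (0.63), and EIF2AK3, which encodes PERK, from 9.67 to 10.27 (0.60). ATF4 itself differed by 0.25. PPP1R15B, which helps dephosphorylate eIF2-alpha, differed by -0.36 and EIF2S1, which encodes eIF2-alpha, by -0.29. The PERK list had a higher median than any group of members. It was chosen with earlier results of these data known, so its share past 1.5-fold describes these genes and tests nothing.

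Among the partners of the sensors, NFYA, a subunit of the factor that binds the CCAAT part of ERSE, went from 10.77 to 11.56, a difference of 0.79 or 1.73-fold, while its partner NFYB differed by -0.08. WFS1, an ER membrane protein that restrains ATF6, differed by 0.54, and MBTPS1, the Golgi protease that cleaves ATF6, by 0.35. RTCB, the ligase that joins the XBP1 exons, differed by -0.29 and MAP3K5, a kinase downstream of IRE1, by -0.14. The list had a median of 0.07 over 13 kept genes, so NFYA stood apart from most of it.

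ERAD genes outside the members had a median of 0.14 over 32 kept genes, with 2 at least 1.5-fold higher and 1 lower. The shares were 6.25% and 3.12%, beside 3.04% and 3.78% of all kept genes. UBE2G2, a ubiquitin-conjugating enzyme of ERAD, went from 11.89 to 12.65 (difference 0.76), and FOXRED2, a flavoprotein that works with SEL1L and OS9, from 10.59 to 11.34 (0.76). YOD1, a deubiquitinase that acts with VCP, went from 9.13 to 8.41 (-0.73). UBE2G1 differed by 0.42, RNF139 by -0.34 and ERLIN2 by -0.33. These genes thus spread further than the ERAD members in the low direction, where OS9 was the lowest member.

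Lists for entry, glycosylation and folding had medians close to those of the members. The median was 0.07 over 24 kept folding factors with 0 past 1.5-fold, among them TMX4 (0.45), DNAJC1 (0.40), DNAJB14 (0.36), MLEC (-0.15), MESD (-0.49) and TMX1 (-0.58), which lay just inside the rule. It was 0.10 over 28 glycosylation genes, in which OSTC, a subunit of the oligosaccharyltransferase, was 1.62-fold lower, while ALG9 differed by 0.35, ALG10 by 0.34, UGGT1 by 0.31, OST4 by -0.24 and ALG14 by -0.26. It was 0.08 over 22 translocon and signal peptide genes, in which 0 passed 1.5-fold, with SRP54 at 0.50, SPCS2 at 0.35, SEC63 at 0.34, SEC11A at -0.22, SPCS3 at -0.43 and SRP9 at -0.53. In each of these lists most kept genes lay within 1.5-fold, as did most of all kept genes, of which 6.82% were past it.

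Genes of ER exit and retrieval had a median on the other side of 0, at -0.04 over 22 kept genes, with 2 at least 1.5-fold lower and 0 higher. The shares were 9.09% and 0%, beside 3.78% and 3.04% of all kept genes. SEC23A, a coat protein of the vesicles that leave the ER, went from 13.38 to 12.60 (difference -0.78), and LMAN1, a cargo receptor for glycoproteins, from 15.54 to 14.93 (-0.61). KDELR3, a receptor that returns chaperones to the ER, differed by -0.51. At the other end SEC24C differed by 0.41, MCFD2, the partner of LMAN1, by 0.38 and ERGIC2 by 0.32. Cytosolic heat shock genes, which answer to a different stress pathway, had a median of 0.13 over 11 kept genes. Of these 9 were above 0 and 0 were past 1.5-fold, beside 50.4% and 6.82% of all kept genes. A median of the size seen in the members thus also occurred outside the ER. In that list BAG3 differed by 0.43, DNAJB1 by 0.38, DNAJA1 by 0.23, HSPA4 by 0.04, HSPA1A by -0.12 and HSF1 by -0.22.

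**Figure D5:**
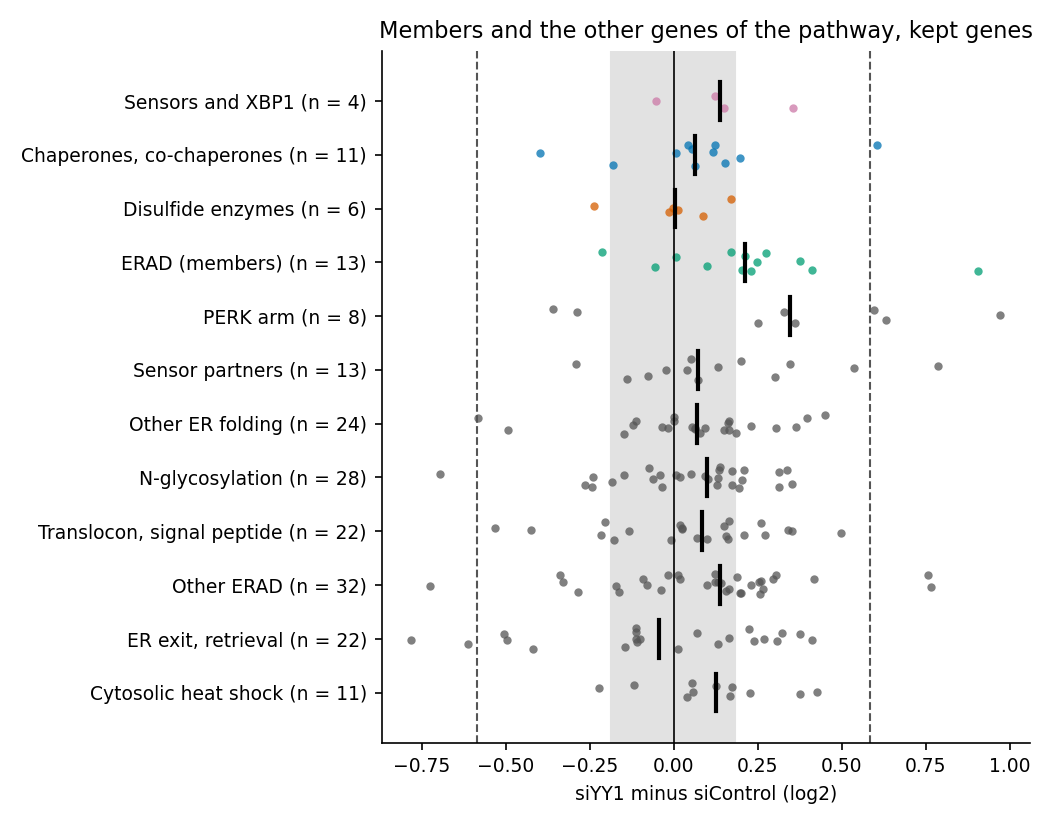
Difference siYY1 minus siControl on the log2 scale for each kept gene (points) of the groups of members (coloured), of the other pathway lists and of the cytosolic heat shock genes (grey), with the median of each list as a black bar, the central 50% of all kept genes as a band and dashed lines at 1.5-fold. Medians lie between -0.04 (ER exit and retrieval) and 0.34 (PERK arm), and ERAD has the highest median among the members (0.21).

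The arrays were checked for cell type and for reference genes. Of 11 colon epithelial markers found, 8 were kept, EPCAM, CDH1, KRT8, KRT18 and CDX2 among them, with differences from -0.20 to 0.19. CLDN4, a tight junction claudin, had a larger difference than any member, -1.50 (12.36 and 10.86), and the other kept markers KRT19 and CLDN3 had -0.34 and -0.28. CDX1, VIL1 and LGALS4 were under the filter value on both arrays. Professional secretory cells express ER folding genes strongly; of 13 markers of goblet and other secretory gut cells 0 were kept, with a median of 3.94 in siControl and 3.96 in siYY1. Of 8 plasma cell markers PRDM1, SDC1 and CD79A were kept, and the defining JCHAIN (3.41 and 2.81) and MZB1 (5.72 and 5.64) were not. Of 8 fibroblast markers COL1A2 was kept (8.60 and 9.05), of 9 leukocyte markers CD68 (8.72 and 7.64), and of 8 endothelial markers none, with COL1A1, PTPRC and CDH5 under the filter value on both arrays. In bulk RNA, fewer cells of a kind and less RNA per cell cannot be told apart. The 11 reference genes measured had a median of -0.03, with ACTB at 0.11 and GAPDH at -0.03, and ran from -0.38 (YWHAZ) to 0.20 (GUSB). The difference of YWHAZ was larger in size than that of XBP1 (0.36) and slightly smaller than that of SDF2L1 (-0.40). SDHA was at -0.33, and no reference gene was as high as XBP1.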

How the data were processed

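Total RNA from SW48 cells was hybridised to whole-transcript GeneChips, 1 array per group, with groups read from the titles of the samples. The authors deposited 1 value per probe set (21448 in all), taken here to be log2 values. That unit rests on their range, from 2.46 to 17.90 and from 2.32 to 17.97. The sources used here do not give the software, the normalization or the log base. Under another base every fold would change. After sorting, the largest gap between the arrays was 0.153.

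Probe sets were named through the platform annotation, checked against RefSeq Entrez identifiers (0 symbols changed); 3739 had no name in it. Each member had 1 probe set, and probe sets of a gene were averaged for the 20 genes with several. Genes were kept at a mean of at least 7.54. Having 1 array a group limits all precision, and no test was possible. Every member was named, and of each other list up to 3 kept genes at each end. Members and lists were chosen with earlier results of these data known. Steps were tested on simulated data. Promoters (250 bases before and 50 after each start) were RefSeq's; protein sequences were not used here. Alternatives were other thresholds, filters, scalings (quantile, median and lowess centring, fraction 0.3), the brightest probe set of a gene and the whole promoter. The tools were pandas 2.3.3, numpy 2.4.6 and statsmodels 0.14.6 under Python 3.11.15, with matplotlib 3.10.9 for figures.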

Additional observations from a re-analysis of the deposited data

How the results depend on the processing

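No paired analysis was possible because each group is a single array. The 2 members past 1.5-fold became 6 at a log2 threshold of 0.32, 0 at 2-fold and 1 with the filter at the 75th percentile, which removes EDEM1. The count over all genes, 603, became 2274 at 0.32, 84 at 2-fold, 204 with the filter at the 75th percentile and 1394 with no filter. The 10 genes of the other pathway lists became 35 at 0.32 and 0 at 2-fold. The members' median of 0.12 ran from 0.11 to 0.12 over the filters, the scalings and the choice of probe set. The median of the disulfide enzymes, 0.00, turned to -0.0023 with the filter at the 75th percentile, which removes ERO1B. Over the scalings 31 members kept their sign; CANX, PDIA6, HERPUD1 and DERL3 did not, and the largest move of any member was 0.055. Members with any of the 5 motifs numbered 13 before the start and 16 in the whole promoter, which adds ATF6B, DERL2 and OS9, each through the YY1 motif. In the whole promoter the YY1 motif occurred in 5 of 33 members (15.2%), beside 7.97% of all genes. The share of all genes with any of the 5 motifs is not given here.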

Other observations

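Outside the members, 16 kept genes had an exact ERSE or ERSE-II in the 250 bases before the start. Their differences had a median of -0.06 and ran from -0.33 (ZNF17) to 0.75 (FICD). FICD, an ER enzyme that attaches AMP to HSPA5 and removes it, was named after its value was seen. It went from 10.30 in siControl to 11.04 in siYY1 and was the 1 gene of the 16 past 1.5-fold, beside 6.82% of all kept genes. SERP1, an ER membrane protein that associates with the translocon and was also named after its value was seen, went from 12.23 to 12.17.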
